A study of Mus musculus with 80 samples.

Results

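The genes described here carry out MHC class I antigen presentation, by which nucleated cells display peptides from their own proteins to CD8+ T cells. They are the 10 genes H2-K1, H2-D1, B2m, Tap1, Tap2, Tapbp, Psmb8, Psmb9, Psmb10 and Nlrc5, chosen by symbol for their role and found among the 25899 gene symbols of the deposited expression table. Psmb8, Psmb9 and Psmb10 are the catalytic subunits that replace their standard counterparts in the immunoproteasome, which cuts proteins into peptides. Tap1 and Tap2 form the transporter that moves these peptides into the endoplasmic reticulum, and Tapbp (tapasin) bridges that transporter to the class I molecule. H2-K1 and H2-D1 encode class I heavy chains, B2m encodes the light chain common to all of them, and Nlrc5 is a transactivator of class I genes. Several of these genes are classic targets of interferon signalling, and resting muscle fibres are known for little class I on their surface.

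RNA was sequenced from muscle stem cells (MuSCs) of extraocular muscles (EOM) and of the tibialis anterior (TA), a limb muscle, before and after transplantation. The donors were male Tg:Pax7-nGFP mice on a C57BL/6;DBA2 F1/JRj background, labelled 7 or 7.6 weeks old, whose satellite cells are sorted by a nuclear GFP driven by Pax7. EOM and TA cells of each donor were injected into opposite TA muscles of the same Rag2-/-;γC-/- host on a C57BL/6J background, which lacks B, T and NK cells, after cardiotoxin injury of those muscles. Cells were re-isolated by GFP, at day 21 by the labels, while the text of the study also gives later times. Pre-graft libraries were made from 500 cells, and the graft libraries compared from as few as 9 cells by the labels. Of 40 RNA libraries from 10 donors in 2 experiments, the 30 that passed the study's quality control were compared: 8 EOM pre-graft, 7 EOM graft, 8 TA pre-graft and 7 TA graft. These held between 3326270 and 14402975 reads in all.

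The grafts differed from the pre-graft cells in more than the class I genes, and these measurements apply to each result below. The 8 MuSC markers summed to a median of 8062 RPM (reads scaled to a common total in every library) in TA pre-graft and 1204 RPM in TA graft libraries, and of 6112 RPM and 1281 RPM in EOM. The 8 endothelial markers summed to a median of 349 RPM before and 4286 RPM after grafting in TA, and 80.3 RPM and 3196 RPM in EOM. All 8 endothelial markers passed the test as higher after grafting from either muscle, against 3.79% of all genes in TA and 3.51% in EOM, with a median log2 fold change of 3.10 in TA and 5.14 in EOM. Among MuSC markers 8 of 8 were called lower in TA grafts and 7 of 8 in EOM grafts, where 30.9% and 55.8% of all genes were. Myofibre markers summed to a median of 133.4 RPM before and 260.3 RPM after in TA, and 29.1 RPM and 344.4 RPM in EOM. Fibro-adipogenic markers went the other way, from 1421 to 511.1 RPM in TA and from 2411 to 879.2 RPM in EOM. Of these Dcn and Lum were called higher and Dpt lower in TA grafts, in 15 of 15 fits with 1 library left out. Erythroid markers had medians of 0.82 RPM before and 3.54 RPM after in TA, and 0.94 RPM and 2342 RPM in EOM. A TA pre-graft library reached 4886 RPM of them. Schwann cell markers had lower medians after grafting from either muscle. Mitochondrial genes took a median of 25.3% of reads in TA grafts and 33% in EOM grafts, against 10.7% and 3.56% before. In such sorted samples, fewer cells of a type and less RNA per cell cannot be told apart, and the part of these differences in the class I results was not tested.

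**Figure D1:**
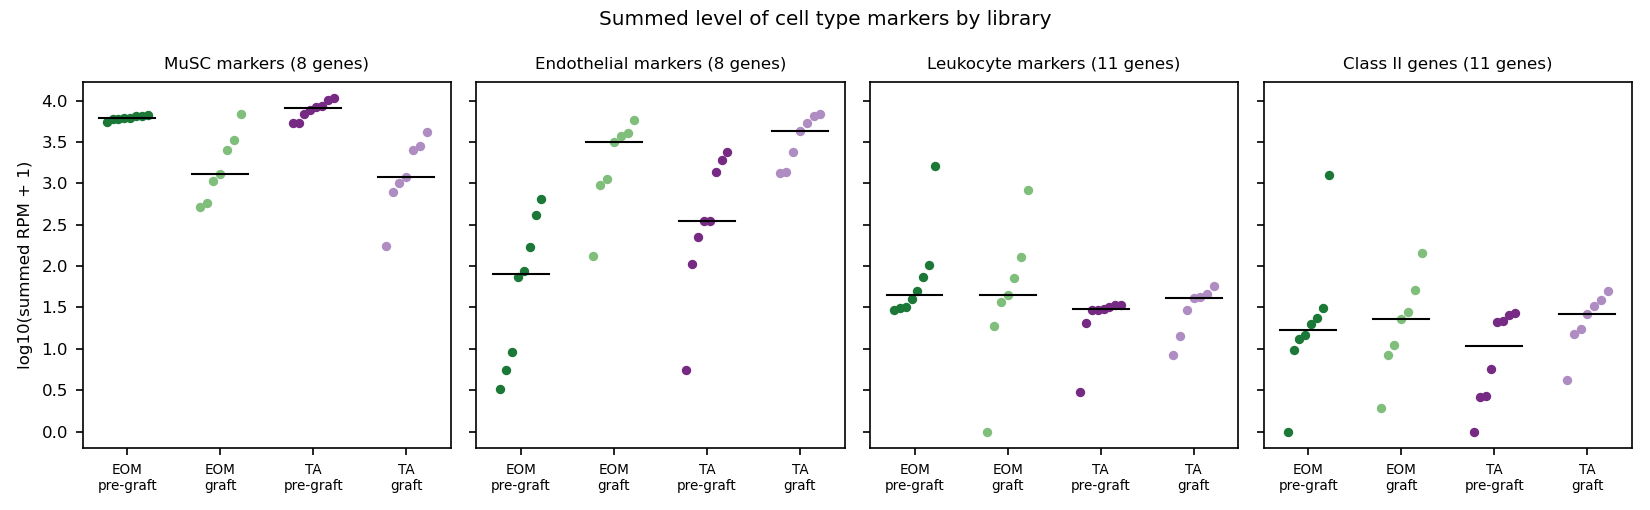
Summed level of 4 marker lists in each library, as log10 of summed RPM + 1, for the 4 groups, each point a library and each line the median. Endothelial markers reached a median of 4286 RPM in TA grafts and 3196 RPM in EOM grafts, while leukocyte markers stayed between 28.9 and 44.5 RPM at the median of every group.

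Leukocytes are rich in class I and are also the cells that carry class II. The 11 leukocyte markers in the table summed to a median of 28.9 RPM in TA pre-graft, 40.4 RPM in TA graft, 44.5 RPM in EOM pre-graft and 43.8 RPM in EOM graft libraries. The EOM pre-graft library of mouse 2 in Experiment 2 stood apart with 1599 RPM, and the EOM graft library of mouse 5 in Experiment 2 with 837 RPM. In TA grafts Tyrobp and Cd79a were the 2 markers without a read, and 9 of 11 had a read in some library. Lyz2, the lysozyme of macrophages and neutrophils, had reads in 1 of 8 TA pre-graft and 5 of 7 TA graft libraries, with medians of -1.01 and 3.98 log2 RPM. It was the 1 leukocyte marker of 3 tested that was called higher there, by 2.72 on the log2 scale (adjusted p = 0.033 in limma). The call held in 7 of 15 fits with 1 library left out. Csf1r and Cd68 went the other way in TA, with medians of 3.56 and 3.75 log2 RPM before and 0.94 and 2.67 after. In EOM grafts 0 of 7 were called higher, against 3.51% of all genes, and 2 lower, Cd68 and Cd79a, against 55.8%. These 2 calls held in 12 and in 6 of 15 fits with 1 library left out. Among class II genes Cd74, the invariant chain, had no read in the 7 EOM grafts and at most 3 reads in a TA graft. H2-DMa, which helps load class II peptides, had reads in 4 of 8 TA pre-graft and 5 of 7 TA graft libraries, with medians of -0.36 and 3.37 log2 RPM. Ctss, a class II pathway protease, had reads in 0 of 8 TA pre-graft and 5 of 7 TA graft libraries. Ciita of the same list went the other way, with reads in 5 of 8 TA pre-graft and 3 of 7 TA graft libraries. The part of these cells in the class I results was not tested.

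Before the values, the control regions of the genes are shown, since several members have the same short motifs upstream. RefSeq promoter windows (GRCm38.p6) of 300 bases, 250 before the start and 50 after it, were found for 8 of the 10 members, and Tap2 and Nlrc5 had none in the table. The 250 bases before the start of 5 members are printed 5′ to 3′ on the strand of the gene, in lower case with capitals where a searched motif matches. H2-K1 and H2-D1 are shown as the heavy chains, B2m as the light chain, Tap1 for the window it shares with Psmb9, and Psmb8 as the member that rose in TA grafts.
H2-K1 (chr17:34000334-34000583, minus strand): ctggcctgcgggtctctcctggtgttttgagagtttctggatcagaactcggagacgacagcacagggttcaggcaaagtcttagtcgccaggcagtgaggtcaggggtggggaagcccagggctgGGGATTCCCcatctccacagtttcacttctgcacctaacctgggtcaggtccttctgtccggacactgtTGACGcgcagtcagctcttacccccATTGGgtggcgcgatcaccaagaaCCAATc
H2-D1 (chr17:35262844-35263093, plus strand): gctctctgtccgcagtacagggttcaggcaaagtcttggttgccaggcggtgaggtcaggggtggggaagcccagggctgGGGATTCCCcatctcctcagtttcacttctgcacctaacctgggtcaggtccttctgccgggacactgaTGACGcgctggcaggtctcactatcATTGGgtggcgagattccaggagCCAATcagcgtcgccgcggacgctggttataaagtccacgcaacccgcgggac
B2m (chr2:122147437-122147686, plus strand): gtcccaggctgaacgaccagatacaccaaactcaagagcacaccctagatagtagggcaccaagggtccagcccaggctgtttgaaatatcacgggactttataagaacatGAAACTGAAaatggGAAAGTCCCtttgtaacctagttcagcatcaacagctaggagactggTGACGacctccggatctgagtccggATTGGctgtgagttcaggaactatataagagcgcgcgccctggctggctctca
Tap1 (chr17:34187306-34187555, plus strand): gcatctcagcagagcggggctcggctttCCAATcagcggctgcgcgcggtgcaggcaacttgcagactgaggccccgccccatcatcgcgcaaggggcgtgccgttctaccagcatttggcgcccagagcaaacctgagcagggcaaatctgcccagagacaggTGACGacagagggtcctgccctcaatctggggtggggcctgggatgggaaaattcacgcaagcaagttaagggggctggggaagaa
Psmb8 (chr17:34197945-34198194, plus strand): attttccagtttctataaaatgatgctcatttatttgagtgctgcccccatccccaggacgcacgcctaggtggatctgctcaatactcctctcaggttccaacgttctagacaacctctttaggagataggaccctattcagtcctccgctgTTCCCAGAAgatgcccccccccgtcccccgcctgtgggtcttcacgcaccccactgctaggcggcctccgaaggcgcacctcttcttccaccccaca

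The motifs searched, on both strands, were GAAANNGAA (the core of an interferon-stimulated response element), TTCNNNGAA (a gamma-activated site), TGACG (the core of a cyclic AMP element), CCAAT, and GGGANTNNC (a form of NF-kappaB site). TGACG was present in 5 of the 8 member windows and in 20.8% of all 32851 windows of the same length. CCAAT was present in 6 of the 8, and in 37.4% of all windows. GGGANTNNC was present in H2-K1, H2-D1 and B2m and in 14.0% of all windows. GAAANNGAA was matched among members only by B2m, and TTCNNNGAA only by Psmb8, against 8.56% and 8.30% of all windows. In H2-K1, H2-D1 and B2m, TGACG was followed by ATTGG, the reverse complement of CCAAT, with its first letter exactly 25 bases on. That spaced pair was found in 31 of all windows, or 0.0944%. The Tap1 stretch and the 250 bases upstream of Psmb9 are the same DNA on opposite strands over 225 bases. A match is a description of the letters and not a measured site. The RefSeq start lies 364 bases from the deposited gene start for H2-D1, 474 for Psmb8, 434 for Psmb9 and 3579 for Tapbp.

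**Figure D2:**
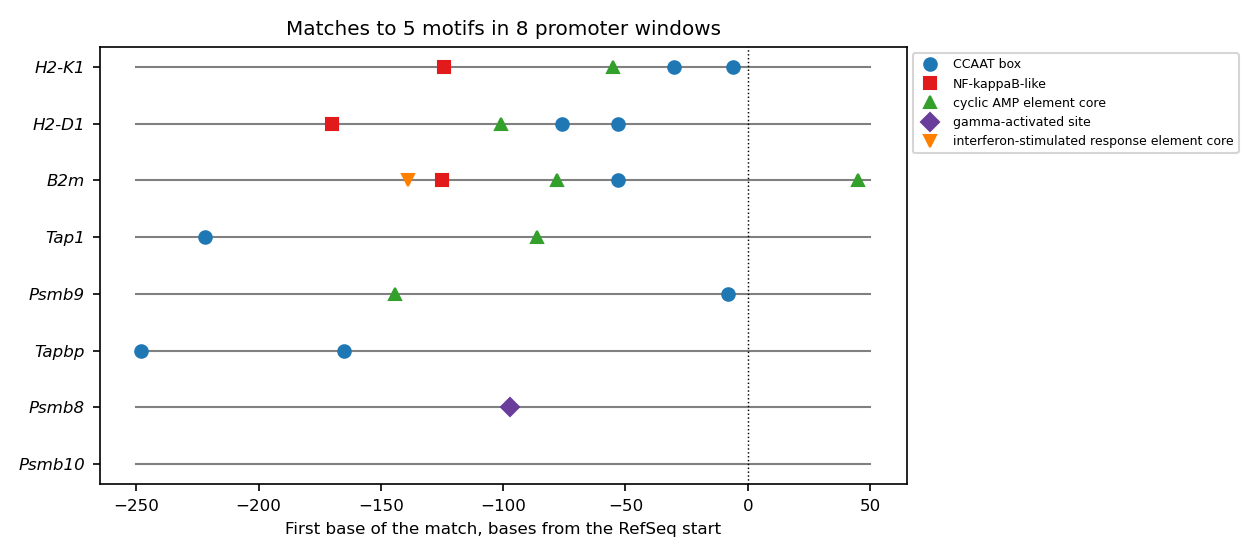
Position of each match to 5 motifs in the promoter windows of 8 members, in bases from the RefSeq start (dotted line), each symbol the first base of a match and each grey line a 300-base window. H2-K1, H2-D1 and B2m carry TGACG 25 bases ahead of ATTGG, the reverse complement of CCAAT, and Psmb10 has no match.

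On GRCm38, 7 of the members lie on chromosome 17 in the mouse MHC: H2-K1 (33996017-34000333), Tapbp (33915899-33929288), Psmb9 (34181988-34187764), Tap1 (34187553-34197225), Psmb8 (34197721-34201454), Tap2 (34203527-34216321) and H2-D1 (35262730-35267499). B2m lies on chromosome 2 (122147686-122153083), and Nlrc5 (94472763-94527272) and Psmb10 (105935728-105938392) on chromosome 8. Reads were not separated by strand, so reads of a member and of a gene that overlaps it cannot be told apart. B2m lies whole within the span of Patl2 and Psmb10 within that of Gm16156. Tapbp shares 3421 bases with Zbtb22, Tap2 overlaps Gm20496 and Gm15821, Psmb8 shares 2140 bases with the antisense gene Gm20496, and Tap1 and Psmb9 overlap by 212 bases. H2-K1 and H2-D1 are close copies of each other and of other class I genes, and the donors carry DBA/2 as well as C57BL/6 alleles, so reads of these genes may be split or lost. That loss was not tested.

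Levels are first compared between genes as log2 RPM per kilobase of exon. B2m was the most abundant member in all 4 groups, at 11.23 ± 0.14 in EOM pre-graft (SD, n = 8), 10.73 ± 0.42 in TA pre-graft (n = 8), 11.13 ± 0.69 in EOM graft (n = 7) and 11.28 ± 0.78 in TA graft libraries (n = 7). H2-D1 and then H2-K1 came next in every group, at 9.51 ± 0.27 and 8.87 ± 0.50 in EOM pre-graft libraries. Transport and loading followed there, with Tapbp at 6.13 ± 0.31, Tap2 at 5.33 ± 0.40 and Tap1 at 5.26 ± 0.30. Tap2 and Tap1 did not differ beyond their spread. Psmb8 stood at 4.25 ± 0.40 and Psmb10 at 3.98 ± 0.31, again within their spread. Psmb9 at 2.17 ± 0.42 and Nlrc5 at 1.91 ± 0.93 were the lowest and also could not be ordered. The TA pre-graft order was the same for all 10 genes. In TA grafts Psmb8 ranked 4 instead of 7, at 5.74 ± 0.76 per kilobase, above Tapbp at 5.41 ± 1.03, a gap within their spread.

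**Figure D3:**
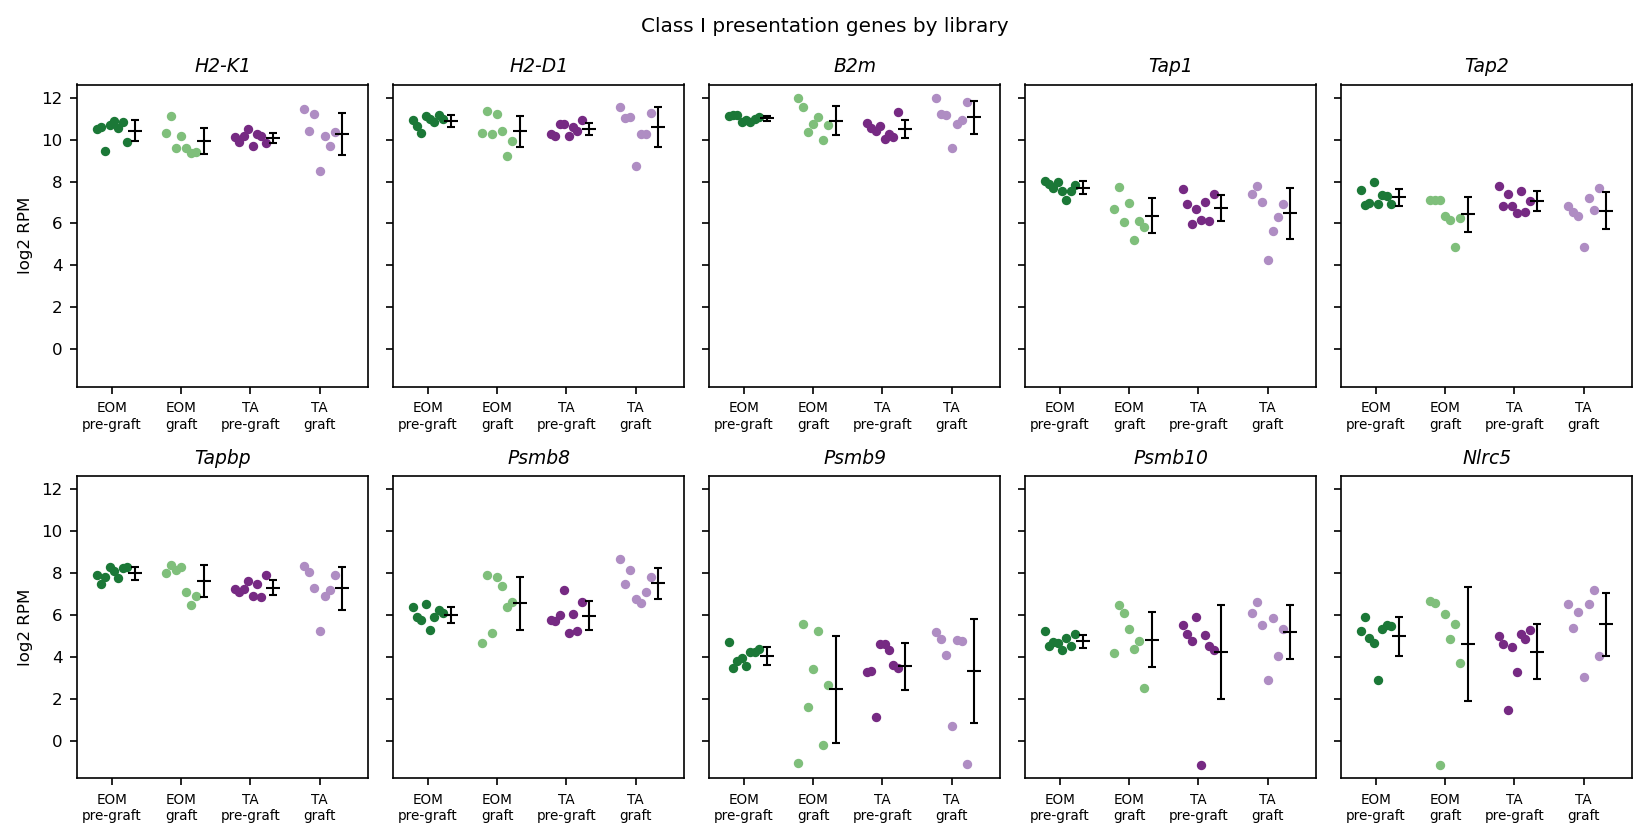
Log2 RPM of the 10 members in each of the 30 libraries, by group, with the mean and SD (bar beside the points). H2-K1, H2-D1 and B2m lie between 8.50 and 11.98 in all libraries, Psmb8 in TA grafts lies between 6.59 and 8.66, and the spread is widest for Psmb9, Psmb10 and Nlrc5.

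The first comparison asks whether the 2 muscles differ before transplantation, and none of the 10 members was called, while the estimates lay on the lower side in TA. Each of the 10 log2 fold changes of TA against EOM was below 0, with a median of -0.50, while the median of the 13217 genes tested was -0.30. In limma on log2 RPM, 0 members were called, a call needing a Benjamini-Hochberg adjusted p below 0.05 and a change of more than 1 log2 unit either way. Of all genes tested 4.56% were called in either direction. 4 members had an unadjusted p under 0.05, and edgeR and DESeq2 also called 0 members. Fibro-adipogenic markers summed to a median of 2411 RPM in EOM and 1421 RPM in TA pre-graft libraries, and myofibre markers to 29.1 and 133.4. Schwann cell markers summed to 17.0 to 2613 RPM in EOM and 3.10 to 393 RPM in TA. The Schwann marker Mbp was called lower in TA in 16 of 16 fits with 1 library left out (-5.89 to -4.63). So were Dcn (-6.91 to -5.25) and Pi16 (-5.85 to -4.53) of the fibro-adipogenic list. The myofibre markers Acta1 and Myh4 were called higher in TA in 16 of 16 such fits. So were the MuSC markers Myod1 (1.88 to 2.17) and Pax7 (1.04 to 1.24). The part of these differences in the class I estimates was not tested.

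Tap1 and Tapbp passed the adjusted p alone. No member passed it in edgeR (lowest adjusted p = 0.087) or DESeq2 (0.053). The same held in limma with all libraries (0.15) and in the joint fit of the 4 groups (0.38). In limma 1 member passed it without mitochondrial genes and 1 with each library centred on its median. With the donor mouse as block 3 members passed it, as 3 did with experiment as covariate. Tap1 had a lowest, median and highest value of 5.98, 6.81 and 7.65 log2 RPM in TA, and of 7.13, 7.78 and 8.03 in EOM pre-graft libraries. The 2 groups overlapped, with most EOM libraries above most TA libraries. The log2 fold change was -0.97 (SE 0.22), adjusted p = 0.0078 in limma, and Tap1 was called in Experiment 2 alone (-1.06, adjusted p = 0.034). It was also called without the TA library of mouse 3 in Experiment 1 (-1.10), of mouse 4 (-1.01) or of mouse 6 in Experiment 2 (-1.06), or without the EOM library of mouse 4 in Experiment 2 (-1.05). For Tapbp the values were 6.88, 7.23 and 7.91 in TA and 7.45, 8.01 and 8.31 in EOM, with TA at -0.69 on the log2 scale (SE 0.17, adjusted p = 0.0115 in limma).

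B2m was even among EOM pre-graft libraries, from 10.83 to 11.16 log2 RPM, and wider in TA, from 10.01 to 11.31. Its log2 fold change of -0.50 (SE 0.16) had an adjusted p of 0.061 in limma. H2-D1 at -0.38 (adjusted p = 0.13) and H2-K1 at -0.35 (adjusted p = 0.25) missed the limit too. Psmb8 was level between the muscles at -0.03, with a 95% interval from -0.59 to 0.52, and intervals were wider for Psmb9 (-1.46 to 0.45), Psmb10 (-1.91 to 0.92) and Nlrc5 (-1.79 to 0.32). No member had groups without overlap, while 1.81% of all genes were lower in every TA than in any EOM library. TA pre-graft libraries of mice 1, 2 and 6 in Experiment 2 held over 1000 RPM of endothelial markers. Without these and the EOM pre-graft library of mouse 2 in Experiment 2, high in leukocyte markers, 4 members passed the adjusted p in limma, Tapbp (-0.85, adjusted p = 0.0059), B2m (-0.68, 0.0073), Tap1 (-0.96, 0.026) and H2-D1 (-0.54, 0.039), and 0 were called.

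The second comparison asks what transplantation did to TA cells returned to a TA muscle, and here Psmb8 rose. Psmb8 had a lowest, median and highest value of 5.16, 5.88 and 7.21 log2 RPM in TA pre-graft libraries, and of 6.59, 7.46 and 8.66 in TA grafts. The read counts behind these were 43 to 352 before and 131 to 843 after. Most graft libraries were above most pre-graft libraries, with some overlap. The log2 fold change was 1.53 (SE 0.40, 95% interval 0.71 to 2.35), a rise of 2.89-fold, adjusted p = 0.0073 in limma. It was the only member called higher of 10, against 3.79% of the 13076 genes tested, and 0 members were called lower, against 30.9% of all genes. In Experiment 2 alone Psmb8 had an adjusted p of 0.060 in limma, at 1.26. Without the 3 pre-graft libraries rich in endothelial markers it stood at 1.92 (adjusted p = 0.0064 in limma). That fit left out no graft, and the TA grafts held 1314 to 6929 RPM of these markers.

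Most genes fell on the log2 RPM scale in the grafts, by a median of 1.09 in TA, and no member besides Psmb8 was called there. H2-K1 was at 0.19 (SE 0.38), H2-D1 by 0.11 (SE 0.38) and B2m by 0.54 (SE 0.37), with adjusted p between 0.23 and 0.83 in limma. H2-D1 spanned 8.76 to 11.57 log2 RPM in TA grafts against 10.15 to 10.93 before, so its grafts lay both above and below all pre-graft values. Tap1 at -0.26, Tap2 at -0.46, Tapbp at -0.02 and Psmb9 at -0.23 were slightly below 0, and none passed the test. Nlrc5 was at 1.30 (SE 0.66, adjusted p = 0.11), with 4.74 as its median before and 6.14 after, and at 1.72 (adjusted p = 0.037 in limma) without the TA graft of mouse 3 in Experiment 2. Psmb10 was at 0.94 with an interval from -0.71 to 2.59, and at 0.17 without the TA pre-graft library of mouse 3 in Experiment 2, which had no Psmb10 read.

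All 10 members lay above the median change of all genes in TA grafts, by 0.62 for Tap2 to 2.62 for Psmb8. Their places among all genes ran from percentile 71.9 to 94.2. Without the expression filter 7 of the 10 lay above the median of all genes, which was then -0.056. When each library was centred on the median of its genes, 5 members were called higher, against 7.67% of all genes: H2-K1 (1.08), H2-D1 (1.00), B2m (1.44), Psmb8 and Nlrc5 (2.19). In edgeR, which scales by TMM, 4 were called higher, against 5.98% of all genes: H2-K1 (1.04), B2m (1.33), Psmb8 and Nlrc5 (2.15). DESeq2 called 5 higher, against 8.8% of all genes, and RPM rescaled without mitochondrial genes gave 3, against 6.02%. The share of higher among all calls was 10.9% on log2 RPM, 57.4% after centring and 66% in edgeR. Tap1, Tap2, Tapbp and Psmb9 were above 0 on each of these scales and below 0 on log2 RPM. No member was higher in every graft than in any pre-graft library, and 0.214% of all genes were.

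**Figure D4:**
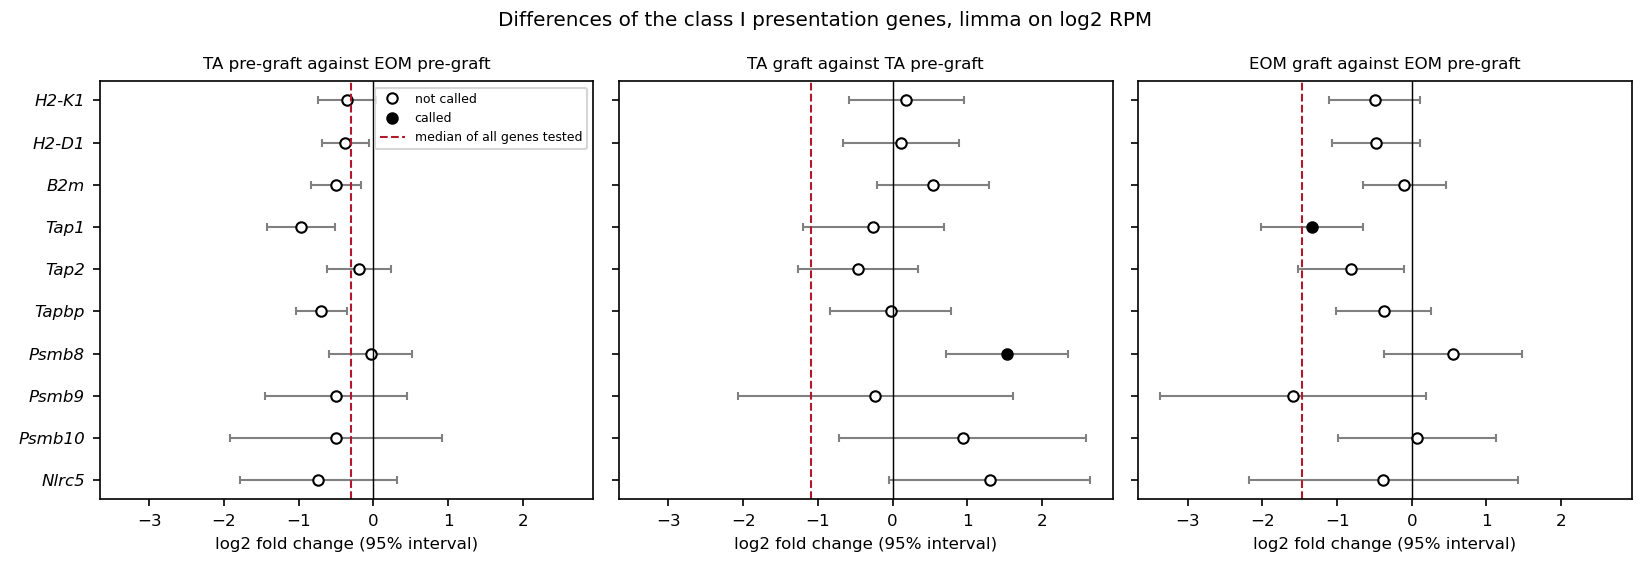
Log2 fold change of each member with its 95% interval in 3 comparisons, by limma on log2 RPM, with filled points for called genes, a solid line at 0 and a dashed line at the median of all genes tested. All 10 members lie right of the dashed line at -1.09 in TA grafts and 9 of 10 right of -1.48 in EOM grafts.

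The third comparison follows EOM cells placed in a TA muscle, where Tap1 fell on the log2 RPM scale and Psmb8 was not called. Tap1 had a lowest, median and highest value of 7.13, 7.78 and 8.03 log2 RPM before and 5.22, 6.10 and 7.72 after. The log2 fold change was -1.33 (SE 0.33), adjusted p = 0.0032 in limma. Tap1 was the single member called lower, against 55.8% of the 13094 genes tested, and 0 were called higher, against 3.51%. The median of all genes was -1.48, so that Tap1 lay close to it. Tap1 was at -0.08 both after centring and in edgeR (adjusted p = 0.86 and 0.91) and was called by neither. Tap2 passed the adjusted p but not the fold limit, at -0.82 (adjusted p = 0.044 in limma).

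No member besides Tap1 was called in EOM grafts on this scale. B2m was at -0.10 (SE 0.27), H2-K1 at -0.49 (SE 0.29), H2-D1 at -0.48 (SE 0.29) and Tapbp at -0.38 (SE 0.31), with adjusted p from 0.14 to 0.74 in limma. Psmb8 had values of 5.27, 6.0 and 6.53 log2 RPM before and 4.67, 6.61 and 7.92 after, so its grafts spread to both sides of the pre-graft values. Its log2 fold change was 0.55 (SE 0.45, adjusted p = 0.27). Psmb9 ranged from 1 to 66 reads in the grafts, and its change of -1.59 had an interval from -3.36 to 0.19. It was called lower without the EOM graft of mouse 1 (-2.11, adjusted p = 0.032 in limma) or of mouse 4 (-2.05, adjusted p = 0.044) in Experiment 2. 9 of 10 members lay above the median of all genes, the exception being Psmb9. Without the expression filter 2 of 10 did, the median of all genes then being 0.061. After centring, B2m (1.15) and Psmb8 (1.80) were called higher, against 6.65% of all genes. In edgeR these 2 and Psmb10 (1.55) were called, against 6.93% of all genes, and DESeq2 called the same 3 higher, against 9.13%. With all libraries Tap1, Tap2 and Psmb9 were called lower, against 48.4% of all genes. That fit includes the EOM pre-graft library of mouse 1 in Experiment 1, with 302 reads on genes. A gene without a read sits at 10.74 log2 RPM there, above every Tap1 value of the compared EOM pre-graft libraries.

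The EOM graft library of mouse 4 in Experiment 1 kept the highest MuSC marker sum of any EOM library, 6780 RPM, and the lowest endothelial sum of any graft, 131 RPM. B2m in it was the highest of the EOM grafts, at 11.98 log2 RPM. Psmb8 in it was the lowest of the EOM grafts, at 4.67 log2 RPM and 54 reads, and Psmb9 had 1 read. The 6 EOM grafts that remain held 944 to 5846 RPM of endothelial markers. The library of mouse 4 was also the only compared EOM graft of Experiment 1 and had the most cells by label. Mitochondrial reads were 3.85% in it and 15.9% to 59.6% in the 6 that remain. The log2 ratio of Psmb8 to Psmb5, its standard counterpart, was -1.38 there. That ratio was lowest, at -2.09, in the EOM graft of mouse 2 in Experiment 2. The endothelial share and these other differences fall together in 1 library, and what each contributed to Psmb8 was not tested.

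The fourth comparison sets EOM grafts against TA grafts, and no member was called. For 6 donors both grafts, which shared a host, were among the libraries compared. Of 12377 genes tested 0% were called by limma, 452 genes had an unadjusted p under 0.05, and 0 of the members did. edgeR called 0 genes and DESeq2 called 1 higher and 2 lower, none of them a member. Psmb8 was at -0.95, with an interval from -2.04 to 0.15, and Nlrc5 at -0.95, with an interval from -2.74 to 0.85. The intervals of B2m (-1.14 to 0.85) and H2-D1 (-1.22 to 0.79) reached about 1 log2 unit either way.

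The fifth comparison tests whether EOM and TA cells changed differently on grafting. Each of the 10 differences, change of EOM minus change of TA, was below 0, from -1.68 for Nlrc5 to -0.35 for Tapbp and Tap2, and none passed the test. The lowest adjusted p was 0.72 in limma, for Tap1, 0 members had an unadjusted p under 0.05, and edgeR and DESeq2 called 0 members. With the donor mouse as block 4 members had an unadjusted p under 0.05, H2-K1 (-0.96), H2-D1 (-0.88), B2m (-0.81) and Tap1 (-1.54), with a lowest adjusted p of 0.37 in limma. Of 14428 genes tested 0.208% were called. The members' median of -0.77 was set against -0.31 for all genes. The sign of Tap2 and Tapbp turned after centring, and those of Tapbp and Psmb10 in edgeR.

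Immunoproteasome subunits take the place of standard ones in the same particle, so each was also set against its counterpart within a library, which cancels the scale: Psmb8 over Psmb5, Psmb9 over Psmb6 and Psmb10 over Psmb7. The log2 ratio of Psmb8 to Psmb5 was -2.54, -1.04 and 0.48 (lowest, median, highest) in TA pre-graft libraries and 0.81, 1.59 and 2.34 in TA grafts. All 7 grafts were above all 8 pre-graft libraries. The means differed by 2.29 on the log2 scale (p = 4.7e-04 by a two-sided exact permutation test, 0.0056 after Benjamini-Hochberg adjustment over the 12 comparisons of 3 ratios). Within donors the difference was 2.22 over 7 pairs, with p = 0.0156 by an exact sign-flip test, the smallest that 7 pairs can give, and 0.19 after adjustment. Without the 3 pre-graft libraries rich in endothelial markers the difference was 2.95 (adjusted exact permutation p = 0.015). Those 3 libraries had ratios of 0.20, 0.48 and 0.48, above all other compared TA pre-graft libraries, the next being at -1. No graft was left out, and the TA grafts held 1314 to 6929 RPM of endothelial markers. What the endothelial share contributed to the ratio was not tested.

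In EOM the same ratio ran from -1.59 to 0.39 before and from -2.09 to 1.55 after grafting, a difference of 1.11 with adjusted p = 0.21 in the exact permutation test. Between the 2 kinds of graft it differed by -1.11, EOM being lower, with adjusted p = 0.21 in the same exact test. Before grafting the muscles differed by -0.07 (adjusted p = 0.99, exact permutation test). Psmb10 over Psmb7 was higher by 1.80 in TA grafts and by 1.14 in EOM grafts, and both had an adjusted p of 0.21 in the exact permutation test. The TA difference was 1.04 without the TA pre-graft library of mouse 3 in Experiment 2, which had no Psmb10 read. Without the EOM graft library of mouse 6 in Experiment 2 the EOM difference was 1.53 (adjusted p = 0.032 by the exact permutation test). Psmb9 over Psmb6 was higher by 1.13 in TA grafts (adjusted p = 0.37, exact permutation test), and by 1.82 without the TA graft of mouse 6 in Experiment 2, which had no Psmb9 read (adjusted p = 0.026). In EOM grafts that ratio differed by -0.03 (adjusted p = 0.99, exact permutation test).

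**Figure D5:**
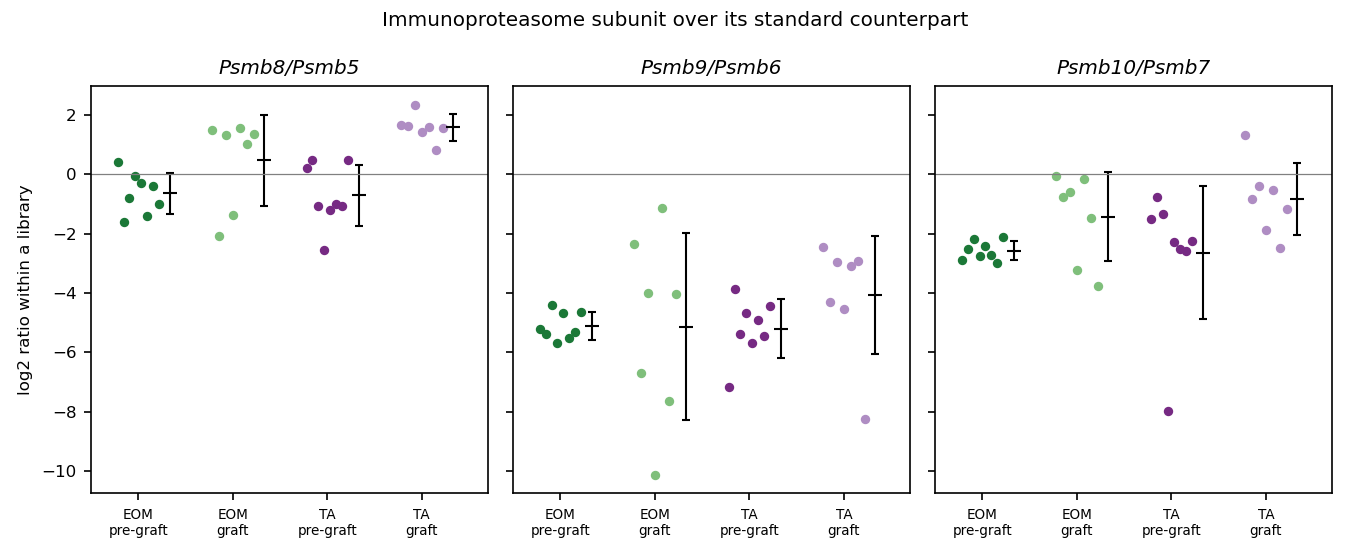
Log2 ratio of each immunoproteasome subunit to its standard counterpart in each of 30 libraries by group, with the mean and SD beside the points. The 7 TA grafts lie between 0.81 and 2.34 for Psmb8 over Psmb5, above every TA pre-graft library.

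Other genes of the class I pathway were counted from lists by role, 28 of the 29 listed genes being in the table and 25 passing the filter in each comparison. Non-classical class I genes, which present to narrower sets of receptors, had 9 tested members. 1 was called in TA against EOM pre-graft cells, where 4.56% of all genes were: H2-Q6, higher in TA by 3.16 (SE 0.81, adjusted p = 0.017 in limma). It ranged from 11 to 219 reads in TA and from 0 to 59 in EOM pre-graft libraries. Of the 9, 1 was called higher in TA grafts and 3 in EOM grafts, against 3.79% and 3.51% of all genes. H2-T23, the heavy chain of Qa-1, was higher in TA by 2.13 (SE 0.77, adjusted p = 0.036) and in EOM by 1.32 (SE 0.56, adjusted p = 0.048) in limma. The TA call of H2-T23 held in 10 of 15 fits with 1 library left out, and the value was 1.35 (adjusted p = 0.040 in limma) without the TA pre-graft library of mouse 3 in Experiment 2, which had no H2-T23 read. The EOM call held in 4 of 15 such fits. H2-T23 had values of 4.88 and 6.32 log2 RPM as medians before and after in TA, and of 4.51 and 6.02 in EOM. In EOM grafts H2-Q6 was also higher by 3.60 (adjusted p = 0.011) and H2-Q7 by 2.34 (adjusted p = 0.040), calls that held in 15 and in 6 of 15 such fits. Of the 9 genes tested edgeR called 5 higher in each kind of graft: H2-T23, H2-T22, H2-Q4, H2-Q6 and H2-Q7, against 5.98% of all genes in TA and 6.93% in EOM. H2-Q genes are close copies, and their reads may be split.

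Chaperones of loading and peptide trimming enzymes were called only as lower in the grafts on the log2 RPM scale. Of 6 tested, 2 were called lower in TA grafts, against 30.9% of all genes: Calr (-1.10) and Canx (-1.12), the calreticulin and calnexin that fold class I heavy chains. In EOM grafts 4 were called lower, against 55.8% of all genes, with Erap1 (-1.92), which trims peptides, and Lnpep (-1.62) besides these. Among transcription factors of the pathway, Rfx5 and Rfxap were called lower in both kinds of graft. Rfx5, a subunit of the RFX complex that binds class I promoters, fell by 3.73 in TA and by 4.77 in EOM, and Rfxap fell by 2.25 and 2.27. The TA call of Rfxap held in 5 of 15 fits with 1 library left out. The TA calls of Calr and Canx were lost without the TA graft of mouse 3 in Experiment 2 (-0.91 and -0.81). Both stayed under the adjusted p limit in limma. Rfx5 had reads in all 16 pre-graft libraries, in 5 of 7 TA grafts and in 4 of 7 EOM grafts. Of 4 proteasome activator and assembly genes 0 were called in TA grafts and 2 were lower in EOM grafts, a share below the 55.8% of all genes: Psme3 (-1.70) and Pomp (-1.13), the latter at -0.91 and not called without the EOM graft of mouse 4 in Experiment 2. In edgeR none of the genes of these 3 lists was called in either graft comparison.

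Of the 14 genes of the standard proteasome core, 6 were called lower in TA grafts and 10 in EOM grafts, against 30.9% and 55.8% of all genes. In edgeR 0 of 14 were called in each. Of the 6 TA calls, Psma4 (-0.93), Psma5 (-0.89) and Psmb6 (-0.998) were lost without the TA graft of mouse 3 in Experiment 2. Each was still under the adjusted p limit in limma. The median of the 14 genes was -0.95 in TA and -1.13 in EOM, near the medians of all genes of -1.09 and -1.48. The 10 class I members had medians of 0.15 and -0.43. Psmb6, the counterpart of Psmb9, fell by 1.36 in TA and by 1.56 in EOM grafts. Class II genes were low and patchy. Of 11 listed, 8 to 10 had a read in some library of each group, and 0 had reads in all libraries of a group. The filter was passed by 3 before grafting, by 2 in the TA and 4 in the EOM graft comparison, and 0 were called in any. Their summed level had a median between 12.5 and 25.3 RPM in the 4 groups, with 1262 RPM in the EOM pre-graft library high in leukocyte markers.

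Likeness was measured as Pearson's r, over the 30 libraries, between a gene and the mean of the 10 members, both centred on the library median and on the group mean, among 11439 other genes. These points share depth and cell composition, so r is a description. Gm20496 came first (r = 0.82), the gene that overlaps Psmb8 and Tap2 on the other strand, and the rest were Slc12a7 (0.81), Mast4 (0.81), Stc1 (0.78), Arrdc4 (0.77), Pcmtd1 (0.77), E030010A14Rik (0.76), Rgnef (0.76), Prcp (0.75) and Ralb (0.75). Gm20496 had medians of 4.30 log2 RPM in TA pre-graft and 5.20 in TA graft libraries. Its log2 fold change there was 1.17 (adjusted p = 0.070 in limma), and how far its reads and those of Psmb8 are the same was not tested. Within the members, H2-D1 was most like Tapbp (r = 0.85), Psmb8 (0.76) and H2-K1 (0.73) over the same 30 libraries. Nlrc5 had r from -0.26 to Tap2 up to 0.33 to Psmb9.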

How the data were processed

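The 10 members and all gene lists were chosen with earlier results of these data known. Reads were trimmed by the authors with Trim Galore 0.4.4 and aligned to GRCm38 with HISAT2 2.1.0, and the deposited table holds log2 RPM values made in Seqmonk, 1 column for each of 40 libraries. The annotation release and the handling of reads with several alignments are not given in the sources used here. Tables deposited by the authors also give the read count of each library and, as percent, how reads fell on exons, rRNA and mitochondrial genes. A gene without a read sits at the value of 0.9 read, and whole reads were recovered for 99.99711% of values within 0.05 of a read. Repeated symbols were merged by the row with most reads, 25965 rows giving 25899 symbols. The 30 libraries that pass the study's quality control were grouped by the labels. Of those left out, the EOM pre-graft library of mouse 3 in Experiment 2 was dropped by the study as an outlier in its group. The 10 libraries left out entered only 1 alternative, and 40 bisulfite libraries were not analysed here. One result of the list of transcription factors is not reported here.

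Genes passed the filter if 4 or more of the libraries compared exceeded log2 RPM 1, and were tested with limma 3.58.1 (trend) in R 4.3.3, with Benjamini-Hochberg adjustment over all genes tested. A call needed an adjusted p below 0.05 and a change of more than 1 log2 unit. The study used DESeq on other selections. Alternatives were log2 of RPM plus 1, no filter, log2 RPM above 2 in 7 libraries, donor as block, experiment as covariate, Experiment 2 alone, all libraries, each library left out, a joint fit of the 4 groups, RPM rescaled with mitochondrial genes left out, centred libraries, edgeR 4.0.16 and DESeq2 1.42.0 on recovered reads. A fit without 4 pre-graft libraries over 1000 RPM of endothelial or leukocyte markers was chosen after seeing the data, as was leaving out each library for genes of the other lists. Subunit ratios were tested with exact permutation tests in Python 3.11.15. The tests were tried on simulated data. Named genes were the 10 members, up to 4 called genes a list and comparison, and the 10 genes most like the members. Genes named from edgeR or at the extremes of a list were chosen after their values were seen.

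EOM and TA libraries of a donor, before and after grafting, come from the same mouse, so donors pair them. Over 26 pairs the correlation of deviations from the group means ran from -0.22 to 0.18, with 5 above 0.1. EOM pre-graft libraries were the deepest, at a median of 1.10e+07 reads against 7.83e+06 in EOM grafts, 9.17e+06 in TA pre-graft and 8.26e+06 in TA graft libraries. Graft libraries come from few cells, so p-values measure the spread between animals together with that of small inputs.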

Additional observations from a re-analysis of the deposited data

Results flagged for a closer look

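Of 52 groups of 7 or 8 libraries examined for a library far from the others, by Dixon's 95% limit, 7 held such a library, where chance alone gives about 5% of groups. Psmb10 was at -1.14 log2 RPM, without a read, in the TA pre-graft library of mouse 3 in Experiment 2, and the other libraries of that group began at 4.34. Its log2 ratio to Psmb7 in the same library was -7.97, against -2.58 for the next. Psmb9 was at 1.13 log2 RPM in the TA pre-graft library of mouse 1 in Experiment 2, the next being 3.28. Psmb9 over Psmb6 was at -8.26 in the TA graft of mouse 6 in Experiment 2, which had no Psmb9 read, and the next was at -4.52. Nlrc5 was at 2.88 log2 RPM in the EOM pre-graft library of mouse 2 in Experiment 2, the one high in leukocyte markers, with the next at 4.68. In the EOM graft of the same mouse Nlrc5 was at -1.14, without a read, with the next at 3.71. Tap2 was at 4.86 log2 RPM in the EOM graft of mouse 5 in Experiment 2, just past the limit, the next being 6.16. The cause of these low values was not tested.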

How the results depend on the processing

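Fits with the donor mouse as replicate block called 0, 1, 0, 0 and 0 members higher and 0, 0, 1, 0 and 0 lower over the 5 comparisons, as without it. The block lost the call of the ratio Psmb8/Psmb5 in TA grafts (2.22, adjusted p = 0.19 by the exact sign-flip test). Its unadjusted p of 0.0156 was the smallest that 7 pairs can give, and no other ratio comparison had a p as low. Within donors the pre-graft ratios turned to 0.080 for Psmb8/Psmb5 and 0.66 for Psmb10/Psmb7, and over all genes calls fell from 7302 to 4537 lower in EOM grafts. Members called higher in TA grafts were 1, and 0 in Experiment 2 alone, 3 when scaled without mitochondrial genes, 5 after centring, 4 in edgeR and 5 in DESeq2. In EOM grafts members called higher were 0, and 2 after centring and 3 in edgeR and in DESeq2. Members called lower there were 1, and 3 with all libraries and 0 without mitochondrial genes, after centring, in edgeR and in DESeq2. In TA against EOM pre-graft cells Experiment 2 alone called 1 lower. Leaving out each library in turn gave 0 to 1 lower in that comparison, 1 to 2 higher in TA grafts and 1 to 2 lower in EOM grafts. It moved the pre-graft ratios from -0.24 to 0.19 (Psmb8/Psmb5), -0.28 to 0.19 (Psmb9/Psmb6) and -0.35 to 0.68 (Psmb10/Psmb7), Psmb9/Psmb6 from 0.84 to 1.82 in TA and -0.69 to 0.80 in EOM grafts, and Psmb10/Psmb7 from 0.91 to 1.53 in EOM grafts. In Experiment 2 alone Psmb8/Psmb5 before grafting was at 0.0032 and Psmb9/Psmb6 in EOM grafts at 0.75.

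Signs of single genes, as log2 fold changes, turned with the scale and with other settings. For TA against EOM pre-graft they turned without mitochondrial genes (Psmb8 0.13), after centring (Tap2 0.051, Psmb8 0.21), in edgeR (Tap2 0.076, Psmb8 0.40, Psmb10 0.42), in DESeq2 (Tap2 0.090, Psmb8 0.42, Psmb9 0.017, Psmb10 0.43), with the replicate block (Psmb8 0.043, Psmb10 0.27) and in Experiment 2 alone (Psmb8 0.046). For TA grafts they turned for Tap1, Tap2, Tapbp and Psmb9 without mitochondrial genes (0.33, 0.13, 0.57, 0.36), after centring (0.64, 0.43, 0.87, 0.67), in edgeR (0.64, 0.37, 0.83, 1.08) and in DESeq2 (0.76, 0.49, 0.94, 1.17), for H2-K1 (-0.036) and H2-D1 (-0.14) in Experiment 2 alone, and for Tapbp with experiment as covariate (0.015) or without the pre-graft libraries high in endothelial or leukocyte markers (0.15). For EOM grafts they turned for H2-K1, H2-D1, B2m, Tap2, Tapbp and Nlrc5 without mitochondrial genes (0.38, 0.39, 0.78, 0.061, 0.50, 0.49), after centring (0.76, 0.77, 1.15, 0.43, 0.87, 0.87), in edgeR (0.66, 0.84, 1.10, 0.33, 0.85, 1.53) and in DESeq2 (0.77, 0.97, 1.22, 0.44, 0.97, 1.65), for Psmb9 in edgeR (1.09) and DESeq2 (1.26), Tap1 in DESeq2 (0.031), B2m with experiment as covariate (0.023), and Psmb8 (-0.098) and Psmb10 (-0.94) with all libraries. For EOM against TA grafts they turned for Tap1 without mitochondrial genes (0.013), after centring (0.0024) and with all libraries (0.12), for Psmb9 with the block and in Experiment 2 alone (0.043 in each), in edgeR (0.0059) and in DESeq2 (0.064), and for H2-D1 in DESeq2 (0.023). For the difference of changes they turned after centring (Tap2 0.057, Tapbp 0.057), in edgeR (Tapbp 0.0074, Psmb10 0.24) and in DESeq2 (Tapbp 0.025, Psmb8 0.022, Psmb9 0.092, Psmb10 0.25). Leaving out single libraries turned signs too, to 0.081 for Psmb8 and 0.27 for Psmb10 before grafting. In TA grafts it brought H2-K1 to -0.012, H2-D1 to -0.052, Tap1 to 0.12, Tapbp to 0.32 and Psmb9 to 0.51, in EOM grafts B2m to 0.051, Psmb10 to -0.20 and Nlrc5 to 0.57, and between grafts Tap1 to 0.11, Tap2 to 0.095, B2m to 0.0055, Psmb10 to 0.0089, Nlrc5 to 0.013 and Tapbp to just below 0. The fit with all libraries includes the EOM pre-graft library of mouse 1 in Experiment 1. It had no Psmb8 or Psmb10 read, and a gene without a read sits there at 10.74 log2 RPM. The cause of the turned signs was not tested. Psmb9, Psmb10 and Nlrc5 rest on 0 to 232 reads a library, which limits their precision.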

Other observations

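The 10 libraries that did not pass the study's quality control entered none of the main comparisons, and their values are given for Psmb8. Psmb8 was at 7.04, 8.02 and 6.75 log2 RPM in the 3 TA grafts left out, on 235, 380 and 26 reads. Its log2 ratio to Psmb5 was 1.71, 1.66 and -0.55 there. In the 3 EOM grafts left out Psmb8 was at 8.19, 4.55 and 6.61 log2 RPM. Before grafting, the TA library of mouse 1 in Experiment 1 had Psmb8 at 6.80 log2 RPM (64 reads) and a log2 ratio to Psmb5 of 0.64, and that ratio was above every compared TA pre-graft library. That of mouse 5 had Psmb8 at 5.56 (2 reads) and a ratio of -2.17. The EOM library of mouse 3 in Experiment 2, dropped as an outlier, had Psmb8 at 7.45 (398 reads), above every compared EOM pre-graft library, and a ratio of 0.46. The EOM library of mouse 1 in Experiment 1 held 2526 reads in all and none for Psmb8. B2m was between 10.51 and 11.54 log2 RPM in the 6 grafts. With all libraries the ratio of Psmb8 to Psmb5 was higher by 2.11 on the log2 scale in TA grafts (adjusted p = 0.0031 by the exact permutation test).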
